A study of Mus musculus with 9 samples.

Results

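The genes described here are the 3 D-type cyclins (Ccnd1, Ccnd2 and Ccnd3), the 2 kinases they activate (Cdk4 and Cdk6) and 5 inhibitors of G1 kinases (Cdkn1b, Cdkn1c, Cdkn2a, Cdkn2b and Cdkn2c). They were chosen by symbol as a readout of dormancy, and all 10 were found among the 24012 genes of the deposited table. RNA had been sequenced from pancreatic ductal adenocarcinoma (PDAC) cells taken out of mouse lungs after tail vein injection. The 9 libraries form 3 groups of 3: mCherryLow and mCherryHigh, which are GFP-positive cells sorted at 6 weeks by a low or high signal of a Gstt1-mCherry reporter, and DTC, GFP-positive cells taken at 5 days. The label does not spell out DTC.

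All 3 groups carry the same genotype label, which includes the pancreatic driver p48-Cre with floxed alleles of Sirt6 (both copies) and of p53 (1 copy), so no group is a control without them. No age, sex or strain of the host is used here. The labels name no mouse for any library, so a p-value measures only the spread between these samples, which may be technical. In the codes of the sample descriptions, mCherryLow 1 and mCherryHigh 1 share series 10, mCherryLow 5, mCherryLow 6 and mCherryHigh 5 share series 12, mCherryHigh 6 is in series 13 and all DTC libraries are in series 14. What the codes mean is not stated, and the DTC state, the time, the sort gate and the series cannot be told apart.

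A cell passes from G1 into S phase when D-type cyclins, bound to CDK4 or CDK6, and cyclin E, bound to CDK2, phosphorylate the retinoblastoma protein and its relatives and so release E2F transcription factors. INK4 proteins (p16, p15 and p18, from Cdkn2a, Cdkn2b and Cdkn2c) bind CDK4 and CDK6 directly, while CIP/KIP proteins (p27 and p57, from Cdkn1b and Cdkn1c) bind cyclin-CDK complexes. Much of this control acts on protein amount and phosphorylation, which RNA levels do not measure.

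The sequences below are the 250 bases before the RefSeq start of Cdk6, Cdkn2c and Cdkn2a, 3 of the 4 genes called between DTC and mCherryLow, and of Cdk4 for comparison with Cdk6. They are on build GRCm38.p6, 5′ to 3′ on the gene's strand, and RefSeq promoters were matched for 7 of the 10 genes (not for Ccnd1, Ccnd2 and Cdkn1c). Capitals mark matches on either strand to an E2F motif (TTTGGCGC, TTTCGCGC, TTTCCCGC or TTTGCCGC), an AP-1 motif (TGAGTCA), a CRE (TGACGTCA), an E-box (CACGTG) or a GC box (GGGCGG). No motif of these sets overlapped another in the sequences shown.
Cdk6, chr5:3343643-3343892, plus strand: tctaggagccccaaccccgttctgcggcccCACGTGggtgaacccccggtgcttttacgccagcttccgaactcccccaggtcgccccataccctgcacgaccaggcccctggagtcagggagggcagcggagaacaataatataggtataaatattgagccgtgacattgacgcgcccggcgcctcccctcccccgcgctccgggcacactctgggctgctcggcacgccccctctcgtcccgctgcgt
Cdk4, chr10:127063285-127063534, plus strand: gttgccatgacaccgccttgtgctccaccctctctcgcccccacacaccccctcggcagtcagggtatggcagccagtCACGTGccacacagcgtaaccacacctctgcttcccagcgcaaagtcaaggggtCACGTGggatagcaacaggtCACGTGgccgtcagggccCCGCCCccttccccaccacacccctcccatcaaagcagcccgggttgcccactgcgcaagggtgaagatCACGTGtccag
Cdkn2c, start 1, chr4:109666757-109667006, minus strand: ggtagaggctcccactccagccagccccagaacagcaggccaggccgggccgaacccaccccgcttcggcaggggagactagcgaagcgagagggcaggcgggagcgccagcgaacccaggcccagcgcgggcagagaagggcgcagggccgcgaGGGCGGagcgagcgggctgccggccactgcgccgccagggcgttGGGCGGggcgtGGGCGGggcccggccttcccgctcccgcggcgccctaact
Cdkn2a, start 1, chr4:89294620-89294869, minus strand: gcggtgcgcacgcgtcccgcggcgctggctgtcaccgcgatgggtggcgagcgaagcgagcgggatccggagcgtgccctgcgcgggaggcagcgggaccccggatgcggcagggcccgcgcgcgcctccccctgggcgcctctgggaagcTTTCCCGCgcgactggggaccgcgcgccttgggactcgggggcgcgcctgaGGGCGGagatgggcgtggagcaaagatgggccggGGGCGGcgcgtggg
Cdkn2a, start 2, chr4:89282193-89282442, minus strand: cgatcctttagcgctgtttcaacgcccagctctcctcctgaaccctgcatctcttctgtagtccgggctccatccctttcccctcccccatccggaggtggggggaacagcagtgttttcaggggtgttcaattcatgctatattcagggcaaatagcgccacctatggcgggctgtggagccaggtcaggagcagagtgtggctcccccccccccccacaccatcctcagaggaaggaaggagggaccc

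The Cdk6 window held 1 E-box, 220 bases before the start, while that of Cdk4 held 4 E-boxes, at 172, 118, 98 and 11 bases, and 1 GC box. Of 32851 mouse promoter windows of this length, 6.02% held an E-box and 32.7% a GC box. Start 1 of Cdkn2c held 3 GC boxes, at 95, 51 and 40 bases before the start. Cdkn2a has 2 starts 12427 bases apart, and the deposited table gives both a single value. The upstream start, which begins the transcript of the p19Arf protein, held 1 E2F match at 99 bases and 2 GC boxes at 48 and 14 bases, and the downstream start, which begins the p16 transcript, held no match. E2F matches stood in 1.86% of all windows. The windows not printed held a CRE at 46 bases in Cdkn2b (1.55% of all windows held one), a GC box in Cdkn1b, and GC boxes at both starts of Ccnd3. A match is a run of letters and not a measured binding site.

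The libraries differ in depth and in the RNA of other cells. Library totals recovered from the values were 643748 to 11861241 reads in the 6 sorted libraries and 923988 to 2052623 reads in DTC, and mCherryHigh 1, at 643748 reads, was the shallowest. Gstt1, the gene of the reporter, was at 60.6, 48.4 and 50.9 CPM (reads of a gene at a common library total) in mCherryHigh and at 15.1, 11.9 and 29.4 CPM in mCherryLow, in the order of the sort. Summed markers of macrophages and monocytes (16 genes) came to 438 to 729 CPM in mCherryLow, 323 to 790 CPM in mCherryHigh and 3719 to 8767 CPM in DTC. For endothelium (10 genes) the ranges were 17.1 to 33.9, 34.2 to 60.6 and 257 to 579 CPM, and for T and NK cells (11 genes found) 9.20 to 28.3, 14.4 to 21.7 and 108 to 457 CPM. Of these lists, 13 of 16, 10 of 10 and 8 of 9 tested genes were higher in DTC than in mCherryLow past the test described below, where 34.2% of all genes were. Some of these genes met its filter of 1 CPM in 3 libraries through DTC alone, such as Cd3e, at 0 CPM in every mCherryLow library. Such genes could only come out higher, so the counts are a description. Markers of ductal and epithelial tumour cells (11 genes) summed to 1854 to 2643 CPM in mCherryLow and to 6077, 2228 and 2253 CPM in mCherryHigh 1, 5 and 6. Their sums were 5373 and 6085 CPM in DTC 1 and DTC 2, but 465 CPM in DTC 3, where Krt18 was at 169 CPM against 3014 and 3046 CPM in the other DTC libraries. Single genes of this list went either way. Cldn4, a claudin of epithelia, was at 0.761, 0 and 0 CPM in DTC, with means of 14.6 CPM in mCherryLow and 56.0 CPM in mCherryHigh. Sox9 had means of 35.7, 43.3 and 111 CPM in mCherryLow, mCherryHigh and DTC. Of the 11 genes, 6 were higher and 5 lower in DTC than in mCherryLow, and 3 higher and 8 lower than in mCherryHigh. B cell, neutrophil, lung epithelium and fibroblast markers summed to at most 76.7 CPM in every sorted library and to 55.1 to 486 CPM in DTC. DTC 3 and mCherryHigh 1 thus stand apart from the rest of their groups, and the calls of the 10 genes, with the lost calls of named list genes, are given with and without them.

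**Figure D1:**
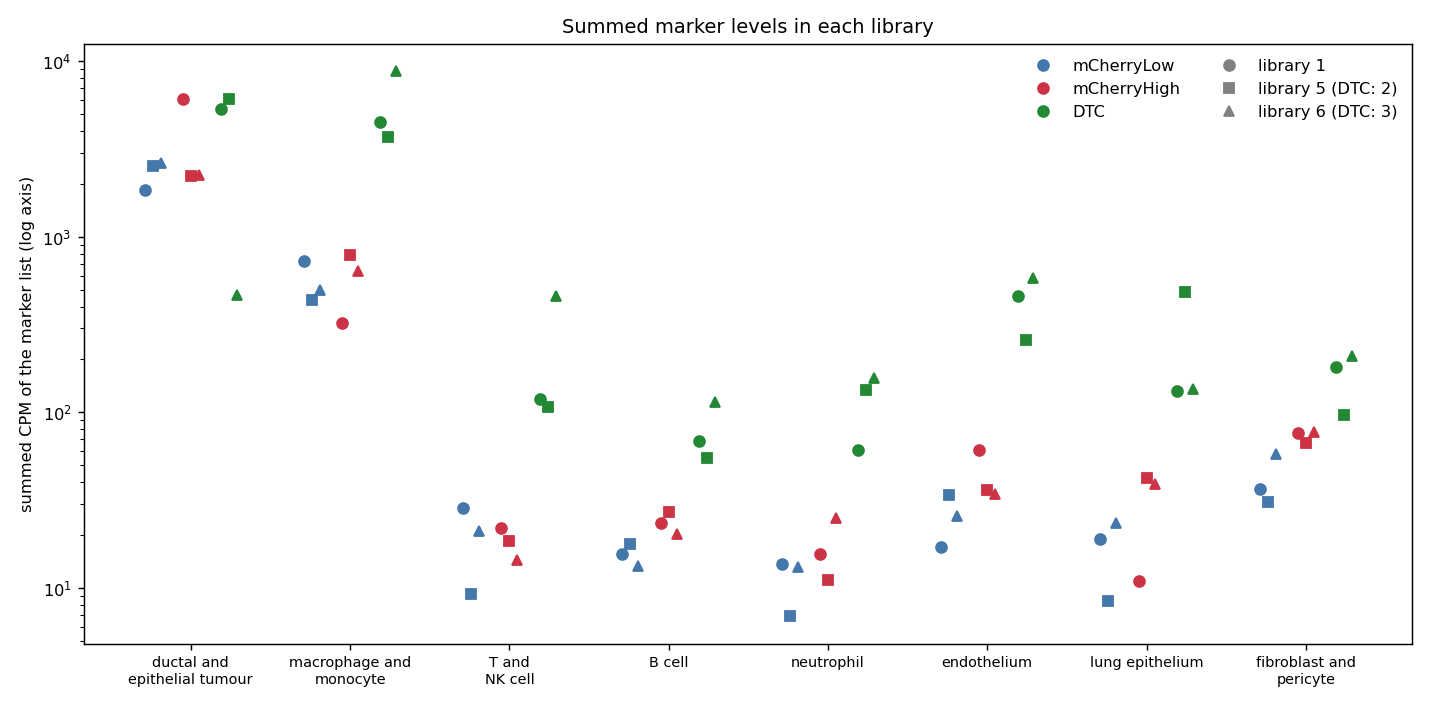
Summed CPM (log axis) of each marker list in each of the 9 libraries; colours give the group and shapes the library. Macrophage sums lie between 3719 and 8767 CPM in DTC and at 790 CPM or less in every sorted library, and DTC 3 has the lowest epithelial sum, 465 CPM.

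Among the D-type cyclins, Ccnd3 was the member that fell in DTC, while Ccnd1 varied most between libraries and Ccnd2 least. Ccnd1 (ENSMUSG00000070348; chromosome 7), which links growth factor signals to CDK4, was at 114, 169 and 263 CPM in mCherryLow 1, 5 and 6. In mCherryHigh 1, 5 and 6 it was at 351, 68.6 and 186 CPM. In DTC it was at 243 and 291 CPM in DTC 1 and DTC 2 and at 20.6 CPM in DTC 3, which rests on 19 reads (95% exact Poisson interval 12.4 to 32.1 CPM, for counting error only). The groups overlapped, and the spread within mCherryHigh and within DTC was wider than the difference between any group means. The means were 182 ± 75.5, 202 ± 142 and 185 ± 144 CPM (SD, n = 3 each). DTC minus mCherryLow was -0.58 on the log2(CPM + 1) scale used for all differences here (95% interval -2.33 to 1.16, limma adjusted p = 0.579), and it was 0.63 without DTC 3.

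Ccnd2 (ENSMUSG00000000184; chromosome 6), a D-type cyclin that in many tissues stands in for Ccnd1, was at 308, 262 and 460 CPM in mCherryLow, at 277, 392 and 521 CPM in mCherryHigh and at 274, 229 and 284 CPM in DTC. DTC 3, the library with little Ccnd1, had the highest Ccnd2 of its group. Its SD on the log2 scale in DTC was 0.17, against 2.10 for Ccnd1 and a median of 0.54 over the 11469 genes with a mean of at least 10 CPM. No difference passed: DTC minus mCherryLow was -0.35 (95% interval -1.09 to 0.38, limma adjusted p = 0.418) and DTC minus mCherryHigh was -0.55 (95% interval -1.31 to 0.21, limma adjusted p = 0.249).

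Ccnd3 (ENSMUSG00000034165; chromosome 17), the D-type cyclin most tied to blood cell lineages, was at 182, 109 and 219 CPM in mCherryLow, at 76.1, 144 and 185 CPM in mCherryHigh and at 47.95, 74.1 and 93.1 CPM in DTC. All 3 DTC libraries lay below all 3 mCherryLow libraries, and DTC overlapped mCherryHigh at mCherryHigh 1. The means were 170 ± 56.0, 135 ± 54.8 and 71.7 ± 22.7 CPM (SD, n = 3 each). Against mCherryLow, Ccnd3 fell by 1.23 (SE 0.40, limma adjusted p = 0.0275), and against mCherryHigh the difference was -0.86 (SE 0.44, limma adjusted p = 0.155). The fall lost its call, with its direction kept, with quantile scaling (-0.97), no trend (-1.23) or thinning (-1.23) and without mCherryLow 1 (-1.15), mCherryLow 6 (-1.02) or DTC 1 (-0.97), at adjusted p between 0.0624 and 0.135, and the difference from mCherryHigh passed without mCherryHigh 1, at -1.22 (adjusted p = 0.0453).

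Within each library, the 3 cyclins divided their summed CPM per kilobase differently. This division does not depend on how the library was scaled. Ccnd1 held 31.2 to 47.1% in mCherryLow, 20.1 to 66.2% in mCherryHigh, and 59.9, 65.4 and 9.68% in DTC 1, 2 and 3. Ccnd3 held 16.3 to 26.7% in mCherryLow, 7.70 to 22.6% in mCherryHigh and 6.34, 8.92 and 23.5% in DTC. DTC 3 was thus unlike the other DTC libraries, with Ccnd2 at 66.8% of the sum. In that library the macrophage and T and NK cell sums were the highest of all 9 and the epithelial sum the lowest, and their part in the cyclin values was not tested. In such bulk samples, fewer cells of a type and less RNA per cell cannot be told apart.

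Cdk6 rose in DTC, and no difference of Cdk4 passed the test. Cdk6 (ENSMUSG00000040274; chromosome 5), the kinase prominent in blood and stem cells, was at 66.8, 63.4 and 78.4 CPM in mCherryLow, at 59.0, 47.9 and 113 CPM in mCherryHigh and at 174, 217 and 131 CPM in DTC. Every DTC library lay above every sorted library, the closest being DTC 3 at 131 CPM and mCherryHigh 6 at 113 CPM. Its mean was 69.5 ± 7.88, 73.3 ± 34.8 and 174 ± 43.2 CPM (SD, n = 3 each). The rise was 1.29 against mCherryLow (SE 0.35, 2.44-fold, limma adjusted p = 0.0116) and 1.30 against mCherryHigh (SE 0.41, 2.47-fold, limma adjusted p = 0.0350). These comparisons share the DTC libraries. Within DTC, Cdk6 was lowest where the macrophage sum was highest (131 CPM beside 8767 CPM in DTC 3) and highest where that sum was lowest (217 CPM beside 3719 CPM in DTC 2), and the part of other cells' RNA in the rise was not tested.

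The rise of Cdk6 stood in a setting where most genes rose: the median of all genes tested was 0.59 against mCherryLow and 0.55 against mCherryHigh, and Cdk6 exceeded these medians by 0.69 and 0.76. The medians depend on the low genes kept, and with a filter of 5 CPM in 3 libraries they were 0.21 and 0.23. With the trimmed mean (TMM) scaling, which brings the medians to 0.12 and 0.23, its differences were 0.73 (adjusted p = 0.153) and 0.91 (adjusted p = 0.163), and edgeR on the recovered reads gave 0.80 (adjusted p = 0.0897) and 0.84 (adjusted p = 0.167). Without DTC 3, the library with the least epithelial RNA, the rises were 1.47 (adjusted p = 0.00946) and 1.49 (adjusted p = 0.0413). Without DTC 1 they were 1.27 (adjusted p = 0.0550) and 1.29 (adjusted p = 0.104). With its direction kept throughout, the rise lost its call in 3 of 19 alternatives against mCherryLow and in 10 of 20 against mCherryHigh. The latter include the fits without mCherryHigh 1, mCherryHigh 5, DTC 1 or DTC 2.

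Cdk4 (ENSMUSG00000006728; chromosome 10), the main partner of cyclin D1 in many epithelia, was at 265, 326 and 244 CPM in mCherryLow, at 513, 233 and 217 CPM in mCherryHigh and at 225, 290 and 70.3 CPM in DTC. The high mCherryHigh value is mCherryHigh 1 and the low DTC value is DTC 3, the libraries that also held the highest and the lowest Ccnd1. DTC minus mCherryLow was -0.73 (95% interval -1.77 to 0.32, limma adjusted p = 0.241) and -0.11 without DTC 3.

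Because Cdk4 and Cdk6 are read in the same library, their proportion is free of the scaling of the library. Per kilobase, Cdk6 made up 5.53, 4.32 and 6.94% of both kinases in mCherryLow, 2.60, 4.56 and 10.8% in mCherryHigh and 15.2, 14.8 and 30.2% in DTC. The DTC shares lay above all 6 sorted shares, and Cdk4 remained the larger in all 9 libraries. The log2 ratio of Cdk6 to Cdk4 in CPM was -1.996 ± 0.36, -2.11 ± 1.10 and 0.034 ± 0.75 (SD, n = 3 each). Given as a description, this ratio shows unequal change and not which kinase changed.

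**Figure D2:**
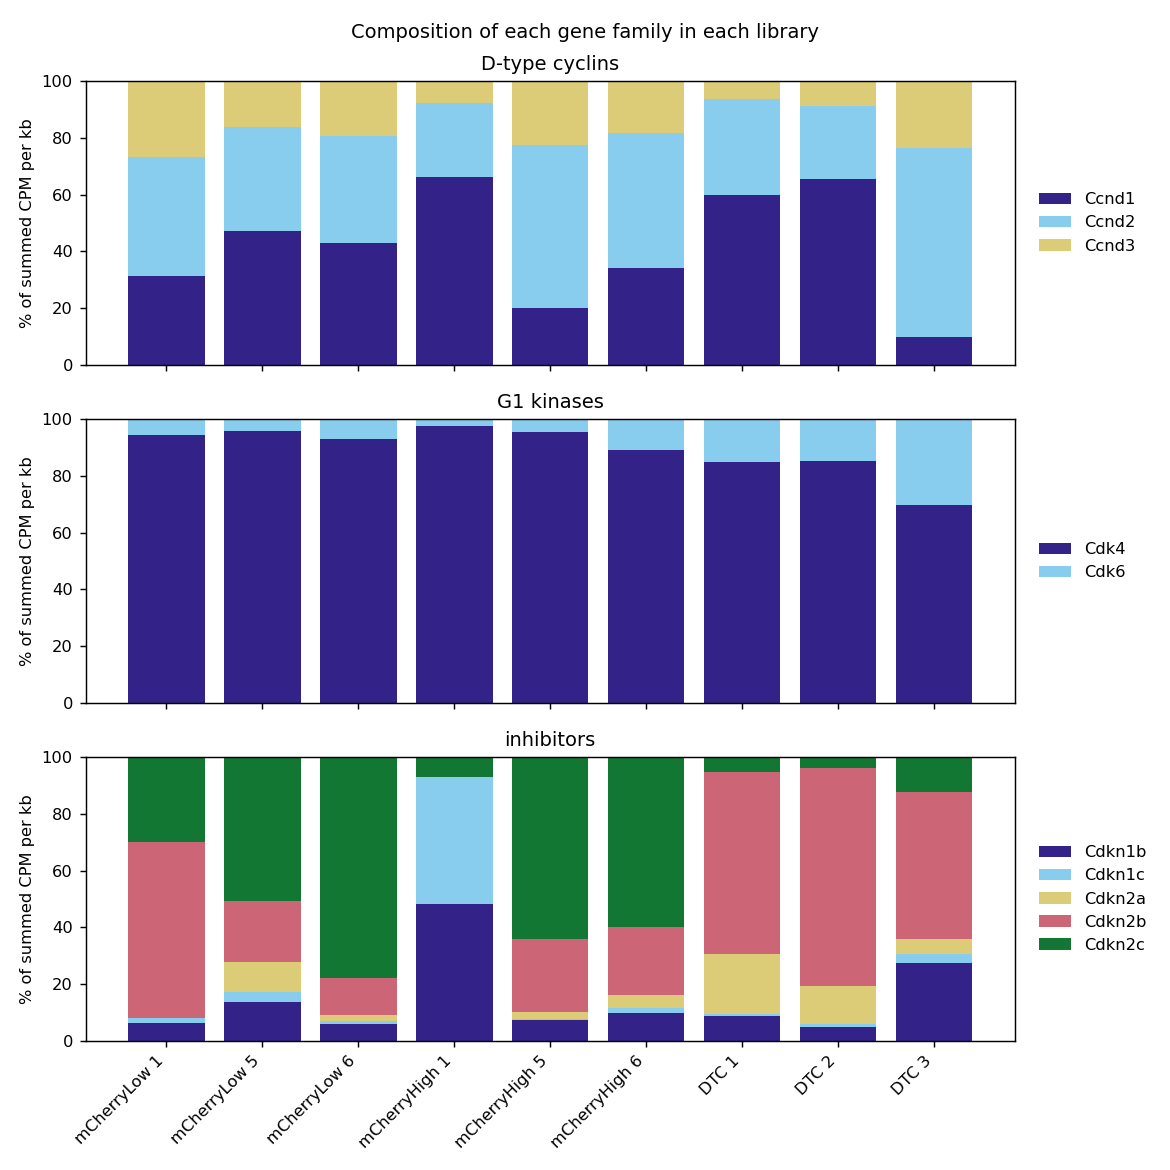
Percent of summed CPM per kilobase held by each gene within the D-type cyclins, the G1 kinases and the inhibitors, in each of the 9 libraries. Cdk6 holds 14.8% or more of the kinases in DTC and at most 10.8% in the sorted libraries, Cdkn2b leads the inhibitors in all 3 DTC libraries, and mCherryHigh 1 and DTC 3 differ from their groups.

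No difference of a CIP/KIP inhibitor passed the test. Cdkn1b (ENSMUSG00000003031; chromosome 6), whose product p27 holds cells in quiescence and is governed largely by protein turnover, was at 16.6, 6.10 and 10.6 CPM in mCherryLow, at 18.6, 8.88 and 16.6 CPM in mCherryHigh and at 16.7, 10.2 and 20.6 CPM in DTC. The groups overlapped throughout. Its differences were 0.41 for mCherryHigh minus mCherryLow (95% interval -0.86 to 1.68, limma adjusted p = 0.874), 0.52 for DTC minus mCherryLow (95% interval -0.71 to 1.76, limma adjusted p = 0.479) and 0.11 for DTC minus mCherryHigh (95% interval -1.13 to 1.36, limma adjusted p = 0.901). The highest upper limit of these intervals is 1.76 on the log2 scale, so a level shared by the groups is not shown.

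Cdkn1c (ENSMUSG00000037664; chromosome 7), the imprinted gene of p57, was near the floor. Its values rest on 4, 8 and 8 reads in mCherryLow (1.95, 0.751 and 0.674 CPM), on 5, 2 and 15 reads in mCherryHigh (7.77, 0.204 and 1.53 CPM) and on 1, 2 and 1 reads in DTC (0.761, 0.974 and 1.08 CPM). The highest value, in mCherryHigh 1, has a 95% exact Poisson interval of 2.52 to 18.1 CPM. No difference was detectable at this depth, and the gene was too low to be tested between DTC and mCherryLow.

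Of the INK4 inhibitors, Cdkn2c was lower in DTC, whereas Cdkn2a and Cdkn2b were higher in some DTC libraries. Cdkn2c (ENSMUSG00000028551; chromosome 4), which makes p18, was at 45.8, 13.4 and 80.0 CPM in mCherryLow (94, 143 and 949 reads) and at 6.09, 4.87 and 5.41 CPM in DTC (8, 10 and 5 reads). In mCherryHigh 5 and 6 it was at 46.0 and 60.4 CPM (451 and 591 reads), but in mCherryHigh 1 it was at 1.55 CPM, which is 1 read (95% exact Poisson interval 0.0393 to 8.66 CPM). The DTC libraries lay below all mCherryLow libraries and overlapped mCherryHigh at mCherryHigh 1 alone. Means were 46.4 ± 33.3, 36.0 ± 30.7 and 5.46 ± 0.610 CPM (SD, n = 3 each).

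Against mCherryLow, Cdkn2c fell by 2.56 in DTC (SE 0.65, 5.90-fold, limma adjusted p = 0.00785), the largest called change of the 10 genes. The call was kept in 18 of 19 alternatives, and with 1 fit over all 9 libraries the adjusted p was 0.0656. It was as large without DTC 3, at -2.56 (adjusted p = 0.0245). Against mCherryHigh the difference was -1.60 (SE 1.04, limma adjusted p = 0.266), and without mCherryHigh 1 it was -3.06 (adjusted p = 0.00314). With edgeR, which kept mCherryHigh 1, the difference was -3.23, and the call was gained in 5 of 20 alternatives. The size of that difference therefore depends on 1 shallow library and on the method.

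Cdkn2a (ENSMUSG00000044303; chromosome 4), the tumour suppressor locus of p16 and p19Arf, was at 0, 1.22 and 0.927 CPM in mCherryLow (0, 13 and 11 reads), at 0, 0.816 and 2.05 CPM in mCherryHigh (0, 8 and 20 reads) and at 10.7, 7.31 and 1.08 CPM in DTC (14, 15 and 1 reads). The counts of 0 lie below a floor of 3 reads per library, worth 1.46 CPM in mCherryLow 1 and 4.66 CPM in mCherryHigh 1. Their 95% exact Poisson upper limits were 1.80 and 5.73 CPM. For the 1 read in DTC 3 the interval was 0.0274 to 6.03 CPM. DTC 1 and DTC 2 lay above every sorted library, and DTC 3 lay among the mCherryLow values. Against mCherryLow, Cdkn2a met the filter of 1 CPM through the 3 DTC libraries, with DTC 3 on 1 read, and mCherryLow 5. Between the sorted groups it was too low to be tested. The rise against mCherryLow was 1.85 (SE 0.68, limma adjusted p = 0.0458), and it passed in 4 of 18 alternatives only, with adjusted p between 0.00239 and 0.680 over them. Against mCherryHigh the difference was 1.73 (SE 0.79, limma adjusted p = 0.117). Without DTC 3 the differences were 2.60 (adjusted p = 0.0133) and 2.48 (adjusted p = 0.0485).

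Cdkn2b (ENSMUSG00000073802; chromosome 4), which makes p15, an inhibitor induced by TGF-beta, was at 49.2, 2.91 and 7.00 CPM in mCherryLow, at 0, 9.49 and 12.4 CPM in mCherryHigh and at 38.1, 49.2 and 11.9 CPM in DTC. DTC 3 was again the lowest of its group, and mCherryLow 1 was as high as DTC 2. The count of 0 in mCherryHigh 1 has a 95% exact Poisson upper limit of 5.73 CPM. The differences were 1.34 for DTC minus mCherryLow (SE 0.86, limma adjusted p = 0.230), or 2.39 without mCherryLow 1 (adjusted p = 0.0228), and 2.498 for DTC minus mCherryHigh (SE 0.96, limma adjusted p = 0.0703).

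The make-up of the inhibitors differed between libraries as well. Per kilobase, Cdkn2c held 29.9, 50.8 and 77.8% of the summed inhibitors in mCherryLow, 6.82, 64.2 and 59.9% in mCherryHigh and 5.30, 3.93 and 12.2% in DTC. Cdkn2b held 13.2 to 62.1% in mCherryLow, 0 to 25.6% in mCherryHigh and 64.0, 76.7 and 51.7% in DTC. In mCherryHigh 1 the sum was mostly Cdkn1b and Cdkn1c, on 12 and 5 reads. The inhibitor sums themselves overlapped, at 9.84 to 57.1, 8.48 to 37.5 and 16.6 to 46.2 CPM per kilobase.

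**Figure D3:**
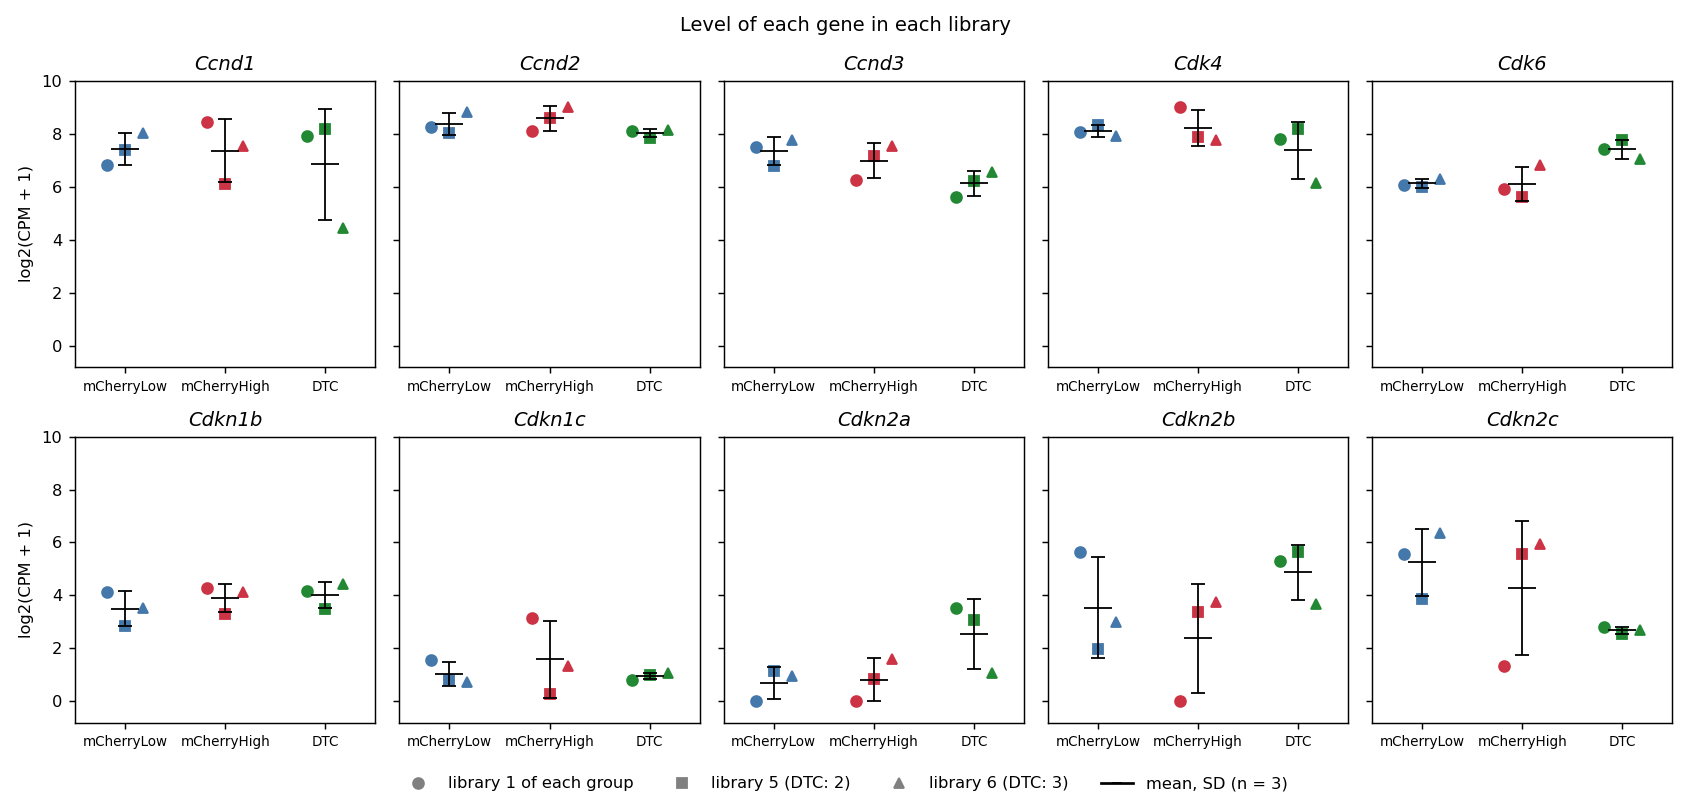
Level of each of the 10 genes as log2(CPM + 1) in mCherryLow, mCherryHigh and DTC, with a point per library and the mean and SD (n = 3) in black. Cdk6 in DTC lies above all 6 sorted libraries, Ccnd3 and Cdkn2c in DTC lie below all mCherryLow libraries, and DTC 3 is low for Ccnd1, Cdk4, Cdkn2a and Cdkn2b.

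Compared per kilobase of annotated exon, Cdk4 had the highest mean of the 10 genes in every group, at 85.7 ± 13.04, 98.7 ± 51.2 and 60.1 ± 34.8 CPM per kilobase (SD, n = 3), followed by Ccnd1 and Ccnd2. Ccnd1 and Ccnd2 did not differ beyond their spread in any group, at 38.7 ± 16.03 and 36.5 ± 11.01 CPM per kilobase in mCherryLow and 39.3 ± 30.7 and 27.9 ± 3.10 CPM per kilobase in DTC. Ccnd3 held rank 4 in both sorted groups and Cdkn2c, Cdkn2b and Cdk6 came next, at overlapping levels. In DTC the order below the leading 3 was Cdkn2b, Cdk6, Ccnd3, Cdkn2a, Cdkn1b, Cdkn2c and Cdkn1c, with means of 23.8, 12.4, 8.17, 5.42, 3.48, 2.03 and 0.461 CPM per kilobase. Cdkn2c went from the fifth place to the ninth and Cdk6 from the seventh to the fifth. The libraries do not mark strand, and the exons of Ccnd1, Cdk4, Cdkn1c and Ccnd3 overlap a gene on the opposite strand over 23.4, 19.7, 30.7 and 4.11% of their length. Those of Ccnd2 overlap 2 such genes, over 3.95 and 3.91%, and those of Cdk6 overlap 1, over 2.63%. The partner of Ccnd1, Oraov1, was at 75.8 CPM in DTC 3 and at 33.5 and 37.5 CPM in DTC 1 and DTC 2, while Ccnd1 was lowest in DTC 3. In the sorted groups Oraov1 kept Ccnd1's order, at 22.9, 23.2 and 32.3 CPM in mCherryLow and 46.6, 19.9 and 35.3 CPM in mCherryHigh. Tspan31, the partner of Cdk4, kept the order of Cdk4 in each group, at 57.1, 94.0 and 47.6 CPM in DTC. Bysl, that of Ccnd3, kept the order of Ccnd3 in no group. The part of such overlap in these values was not tested. Cdkn1b, Cdkn2a, Cdkn2b and Cdkn2c overlapped no other exon, and all their 50-base windows were unique among annotated transcripts.

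Taking the 10 genes by comparison, mCherryHigh and mCherryLow, the groups that ask how reporter-high and reporter-low metastatic cells differ, gave no call among them. Of 9 tested, 0 were called by limma, with adjusted p from 0.830 to 0.994 and 0 at an unadjusted p under 0.05, where 0% of all 15437 genes were called and 9.38% had an unadjusted p under 0.05. edgeR and DESeq2 also called 0 of the 10 genes, while over all 15437 genes edgeR called 0 and DESeq2 49 higher and 99 lower. In 0 of 9 did the groups not overlap, against 15.9% of all genes. The largest differences were those of Cdkn2b, -1.16 (95% interval -4.08 to 1.75), and Cdkn2c, -0.96 (95% interval -3.83 to 1.90), with mCherryHigh 1 the lowest library for both. The narrowest interval was that of Ccnd2, 0.20 (-0.52 to 0.92), followed by Cdk4, 0.10 (-0.71 to 0.91), and Cdk6, -0.018 (-0.87 to 0.83).

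DTC against mCherryLow, early cells against reporter-low cells of established lesions, gave the most calls. Of 9 genes tested, 2 rose (Cdk6 and Cdkn2a), where 34.2% of all 18701 genes were called higher, and 2 fell (Cdkn2c and Ccnd3), where 8.87% of all genes were called lower. Cdkn2a met the filter mainly through DTC, the group where it was higher. In all, 4 of 9 were called against 43.1% of all genes, so the number of calls is near the background. The median of the 9 genes was -0.35, beside 0.59 over all genes (0.21 with a filter of 5 CPM in 3 libraries). The groups did not overlap for 3 of the 9 genes, against 53.2% of all genes. With TMM scaling 5347 genes were called higher and 3376 lower, in place of 6405 and 1659, and of the 10 genes 0 were called higher and 2 lower. Without DTC 1, 0 were called higher and 1 lower, and without DTC 3, 2 higher and 2 lower.

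For DTC against mCherryHigh, 1 of 10 genes was called higher (Cdk6), where 23.0% of all 19700 genes were, and 0 lower, where 7.19% were, or 30.2% in either direction. At an unadjusted p under 0.05 there were 3 of the 10 genes, beside 42.5% of all genes, and the groups did not overlap for 1 of 10, against 44.7% of all genes. With TMM scaling 3724 genes were called higher and 2126 lower, in place of 4532 and 1417, and edgeR called 0 of the 10 genes higher and 2 lower, DESeq2 0 higher and 1 lower. The median of the 10 genes was -0.54, beside 0.55 over all genes (0.23 with a filter of 5 CPM in 3 libraries). Without mCherryHigh 1, 0 genes were called higher and 2 lower, and without DTC 3, 2 higher and 0 lower. Without both mCherryHigh 1 and DTC 3, a choice made after the values were seen, 3 genes were called higher (Cdk6 at 1.39, Cdkn2a at 2.06 and Cdkn2b at 1.90) and 2 lower (Cdkn2c at -3.06 and Ccnd3 at -1.44), where 17.7% of 15477 genes tested were called higher and 9.50% lower. With 3 libraries against 3, an exact two-sided permutation test of a single gene cannot go below p = 0.1, so calls come from the fit over all genes alone.

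**Figure D4:**
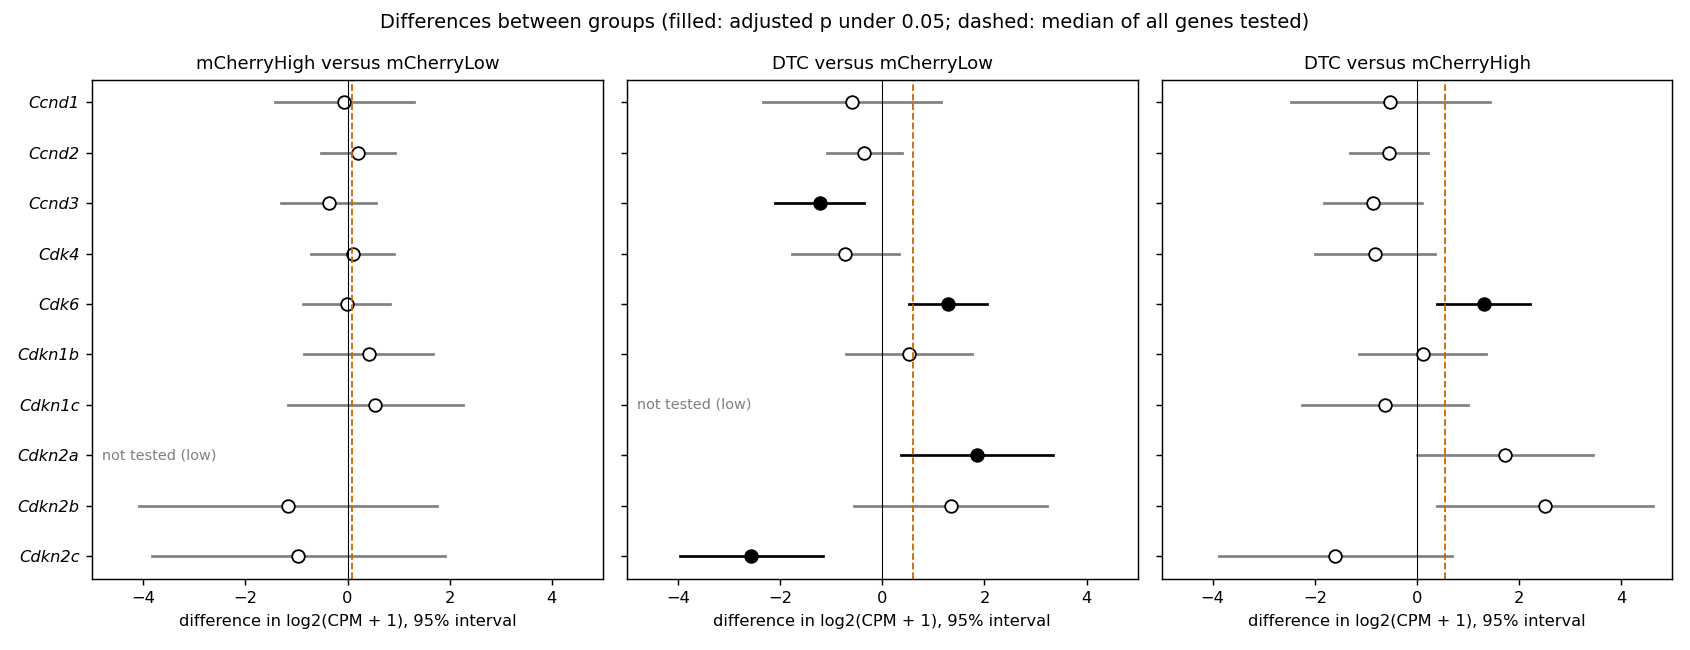
Difference of each gene on the log2(CPM + 1) scale with its 95% interval for the 3 comparisons; filled points passed limma at an adjusted p under 0.05 and the dashed line is the median of all genes tested. In DTC against mCherryLow, Cdk6 (1.29) and Cdkn2a (1.85) lie above 0 and Ccnd3 (-1.23) and Cdkn2c (-2.56) below it, and no gene is filled for mCherryHigh against mCherryLow.

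The pathway lists below stand beside the shares over all genes, which were 34.2% called higher and 8.87% lower in DTC against mCherryLow and 23.0% and 7.19% against mCherryHigh. Without DTC 3, a choice made for these lists after the values were seen, the shares were 20.5% and 7.40% against mCherryLow and 12.7% and 5.69% against mCherryHigh, and without mCherryHigh 1 they were 29.2% and 8.45%. Of the genes that act on or below these regulators, the retinoblastoma and E2F list (13 genes) had 0 called higher and 1 lower in DTC against mCherryLow and 2 higher and 1 lower against mCherryHigh. E2f6, a repressor of the family, fell in DTC against both, from 55.1 ± 25.2 CPM in mCherryLow and 54.6 ± 19.1 CPM in mCherryHigh to 13.1 ± 7.75 CPM (SD, n = 3 each; differences -2.08 and -2.14, limma adjusted p = 0.0167 and 0.0205). E2f2, an activator, and E2f4, which acts with pocket proteins in quiescent cells, were higher in DTC than in mCherryHigh, by 2.53 and 1.53 (limma adjusted p = 0.0287 and 0.0220). Without DTC 3, E2f6 was at -1.48 against mCherryLow (adjusted p = 0.0555) and E2f2 at 2.501 against mCherryHigh (adjusted p = 0.0842), so the list had 0 called either way against mCherryLow, and 2 higher and 1 lower against mCherryHigh. Rb1 itself was at 35.3, 31.9 and 33.5 CPM in the 3 groups.

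The list of cyclin E, CDK2 and CDK activation (10 genes) had 1 gene called higher in DTC against mCherryLow and 2 against mCherryHigh, with 0 lower in both. Cks2, a small CDK-binding subunit, rose from 3.46 ± 0.883 and 3.15 ± 1.33 to 31.2 ± 7.76 CPM (SD, n = 3 each; 2.84 and 2.97, limma adjusted p = 0.00174 and 0.00522). Cdk7, the CDK-activating kinase, rose against mCherryHigh by 1.43 (limma adjusted p = 0.0119). Cks2 and Cdk7 kept these calls without DTC 3 and without mCherryHigh 1. Without DTC 3 the median of the list against mCherryLow went from -0.12 to 0.41, and 4 of its genes were called higher against mCherryHigh. In mCherryHigh against mCherryLow all 10 genes of this list had a negative difference, with a median of -0.54 beside 0.090 for all genes, and 0 passed; Ccna2 was at 31.5 against 71.1 CPM and Cks1b at 65.5 against 97.0 CPM.

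The remaining CDK inhibitors, Cdkn1a and Cdkn2d, gave 0 calls in any comparison of all libraries. Without DTC 3, Cdkn1a was called lower in DTC than in mCherryHigh, at -1.01 (limma adjusted p = 0.0496), and Cdkn2d was not called. Without mCherryHigh 1 the difference of Cdkn1a was -0.62 (limma adjusted p = 0.302). Cdkn1a, the p53 target p21, was the most abundant inhibitor in CPM, at 161 ± 23.4, 200 ± 14.6 and 134 ± 62.0 CPM (SD, n = 3 each). Cdkn2d, which makes p19Ink4d, was at 2.11, 4.18 and 1.41 CPM.

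Genes for the turnover of p27 and of D-type cyclins (15 genes, 16 entries since Fbxo31 has 2) had 2 higher and 3 lower in DTC against mCherryLow and 1 higher and 3 lower against mCherryHigh. Skp2, the ubiquitin ligase subunit that targets p27, rose from 27.1 ± 13.1 CPM in mCherryLow to 67.2 ± 9.94 CPM in DTC (1.39, limma adjusted p = 0.0284), and Fbxw7, which targets cyclin E, rose from 23.1 ± 7.86 to 110 ± 18.4 CPM (2.24, limma adjusted p = 0.00139). Of the ligase scaffold and adaptor genes, Cul1 fell from 193 ± 34.3 to 78.9 ± 27.4 CPM (-1.32, limma adjusted p = 0.0135) and Ddb1 from 537 ± 55.3 to 182 ± 106 CPM (-1.74, limma adjusted p = 0.00760). Rnf123, a subunit of a ligase for p27, fell by 1.59 (limma adjusted p = 0.0472). Cul4a and Skp1a of the same list were not called in this comparison. Against mCherryHigh, Fbxw7, Ddb1 and Cul1 were called in the same directions, and Skp1a, the adaptor of the Skp2 ligase, fell by 1.49 (limma adjusted p = 0.0342). Without DTC 3, Fbxw7 and Ddb1 kept their calls in both comparisons and Cul1 against mCherryLow (-1.07, adjusted p = 0.0337). Skp2 (1.30, adjusted p = 0.0781) and Rnf123 (-0.90, adjusted p = 0.140) lost theirs against mCherryLow, and Cul1 (-0.90, adjusted p = 0.0785) and Skp1a (-1.07, adjusted p = 0.1004) against mCherryHigh. Cul1 and Skp1a also lost them without mCherryHigh 1 (adjusted p = 0.0556 and 0.0848).

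In the MuvB and DREAM list (8 genes), whose complex silences cell cycle genes in quiescence, 1 gene was higher in DTC than in mCherryLow, the kinase Dyrk1a (1.45, limma adjusted p = 0.0247), and 1 was lower in DTC than in mCherryHigh, the DNA-binding subunit Lin54 (-1.35, limma adjusted p = 0.0319). Of 15 genes tested among regulators of the Cdkn2a locus, 0 rose and 2 fell against mCherryLow, and 0 rose and 1 fell against mCherryHigh. Id1, which opposes activators of Cdkn2a, fell from 74.0 ± 18.3 CPM in mCherryLow and 127 ± 29.7 CPM in mCherryHigh to 28.4 ± 4.52 CPM (-1.33 and -2.10, limma adjusted p = 0.0181 and 0.00400), and Eed, a Polycomb subunit, fell from 128 ± 24.2 to 61.5 ± 31.1 CPM against mCherryLow (-1.16, limma adjusted p = 0.0462). Without DTC 3, Id1 kept both calls (-1.25 and -2.01), while Dyrk1a (1.29, adjusted p = 0.0790), Eed (-1.17, adjusted p = 0.0774) and Lin54 (-1.27, adjusted p = 0.0657) lost theirs, as Lin54 did without mCherryHigh 1 (adjusted p = 0.0716). Calls were also gained without DTC 3. Against mCherryHigh the MuvB and DREAM list then had 1 higher and 0 lower, and the regulators of Cdkn2a 1 higher and 1 lower. Against mCherryLow these lists had 0 higher, with 0 and 1 lower.

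The list of dormancy-associated genes (22 genes) had 7 called higher and 2 lower of 21 tested in DTC against mCherryLow, where 34.2% and 8.87% of all genes were called, and 4 higher and 3 lower of 22 against mCherryHigh. Its median in the first was 0.59, the same as that of all genes. Lifr, the receptor of leukaemia inhibitory factor, went from 15.7 ± 9.82 CPM in mCherryLow to 72.0 ± 11.3 CPM in DTC (2.27, limma adjusted p = 0.00334), and Gas6, a ligand of AXL, was at 1.37 ± 0.555 and 10.7 ± 1.29 CPM (2.33, limma adjusted p = 0.00537). Axl itself, the receptor, fell from 730 ± 180 CPM in mCherryLow and 587 ± 83.4 CPM in mCherryHigh to 153 ± 28.6 CPM in DTC (-2.23 and -1.94, limma adjusted p = 0.000620 and 0.00275). Dkk1, a secreted WNT inhibitor, had 0 reads in all 6 sorted libraries and was at 15.2, 15.1 and 27.1 CPM in DTC. It met the filter through the DTC libraries alone, so among the tested genes it could only come out higher. With Dkk1 at the floor of 3 reads in each sorted library, the list medians were still 0.59 and 0.057. Dkk1 lay above the median either way, so this replacement could not move it and is no test of the list. Without DTC 3 the list had 4 higher and 2 lower of 19 tested against mCherryLow and 4 higher and 1 lower of 21 against mCherryHigh, and Axl, Gas6 and Lifr kept their calls. Dkk1 no longer met the filter without DTC 3, so the counts with and without that library cover different genes. Nr2f1, an orphan nuclear receptor, was at 4.71, 10.9 and 8.43 CPM in the 3 groups and did not pass. The macrophage, endothelial and T and NK cell sums were higher in the same DTC libraries, and their part in these genes was not tested.

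For S phase and mitosis (24 genes), 0 were higher and 2 lower in DTC against mCherryLow, with a median of -0.36 and 19 of 24 differences below 0, and 1 was higher and 0 lower against mCherryHigh. Over all genes 37.4% of differences from mCherryLow were below 0. Summed over the list, mCherryLow held 2152 to 3644 CPM and DTC 2183, 3063 and 952 CPM, the last in DTC 3, and without DTC 3 the median was 0.0046, with 12 of 24 below 0, 1 called higher and 1 lower. Against mCherryHigh without DTC 3, 3 were called higher and 0 lower. In mCherryHigh against mCherryLow 0 were called, with a median of -0.39 beside 0.090 for all genes and 19 of 24 below 0, where 43.6% of all genes were. Without mCherryHigh 1 this comparison had a median of -0.57 beside 0.13 for all genes, with 22 of 24 below 0 and 0 called. Plk1, a mitotic kinase, fell from 65.8 ± 16.8 to 20.99 ± 22.8 CPM against mCherryLow (-2.21, limma adjusted p = 0.0279), and without DTC 3 the difference was -1.34 (adjusted p = 0.0891). Mki67, the antigen Ki-67, was at 109 ± 37.6, 141 ± 21.6 and 104 ± 28.2 CPM (SD, n = 3 each) and gave differences between -0.47 and 0.42 in the 3 comparisons, with limma adjusted p from 0.355 to 0.930. Without mCherryHigh 1, the calls against mCherryHigh were 2 higher and 1 lower in the retinoblastoma and E2F list, 2 and 0 in that of cyclin E, 2 and 1 in turnover, 1 and 0 in MuvB and DREAM, 1 and 1 among regulators of Cdkn2a, 4 and 2 in the dormancy list and 3 and 0 for S phase and mitosis.

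**Figure D5:**
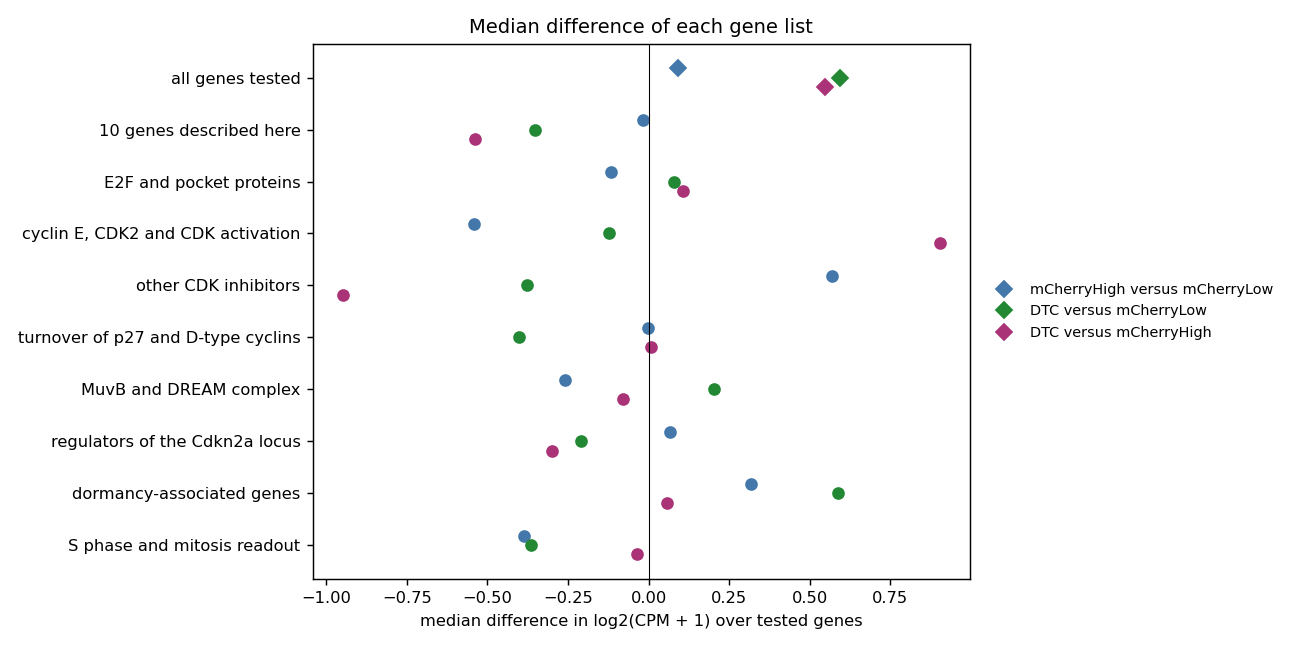
Median difference on the log2(CPM + 1) scale over the tested genes of each list (circles) and over all genes tested (diamonds), for the 3 comparisons. All genes lie at 0.59 and 0.55 in the DTC comparisons, the dormancy-associated list at 0.59 and 0.057, and the 10 genes described here at -0.35 and -0.54.

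The genes most alike to each member over the 9 libraries, by Pearson's r of log2(CPM + 1) among the 11469 genes with a mean of at least 10 CPM, are given as a description, since 9 points that share group, depth and other cells' RNA give high values readily. For Cdk6 they were Runx2 (r = 0.97), a transcription factor of bone, and Ube2n (r = 0.95), a ubiquitin-conjugating enzyme. Runx2 was at 69.3, 80.4 and 50.9 CPM in DTC and at 15.0 to 48.8 CPM in the sorted libraries. For Cdk4 they were Ints4 and Elp3 (r = 0.99 and 0.98), for Ccnd1 Prkcdbp and Snrpd2 (0.98 and 0.97), for Ccnd2 Wwtr1 and Rbm43 (0.94 and 0.94) and for Ccnd3 Atg12 and Mll5 (0.98 and 0.97). For Cdkn1b they were Snx10 and Midn (0.93 and 0.93), for Cdkn2b Cdc42ep2 and Ier5l (0.96 and 0.94) and for Cdkn2c Tmem134 and Gmpr (0.97 and 0.97). Cdkn1c and Cdkn2a were below the minimum.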

How the data were processed

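RNA came from the RNAqueous-Micro kit, and SMART-seq v4 and Nextera XT libraries, which do not mark strand, were made from it, per the labels' protocols. Per the submitters' processing notes the build was mm9, and the aligner and counter were not given in the sources used here. Deposited values are the authors' CPM for 24012 genes in 9 libraries. All values (100%) were whole multiples of 1 read within 0.01 read, which gave whole reads and totals.

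Comparisons used limma 3.58.1 (R 4.3.3) on log2(CPM + 1) with group as the sole term, a mean-variance trend, two-sided tests, a filter of 1 CPM in 3 of 6 libraries, and p-values adjusted by Benjamini-Hochberg across every gene tested, with a threshold of 0.05. Alternatives were other pseudocounts, filters and scalings, array weights, edgeR 4.0.16 and DESeq2 1.42.0 on recovered reads, thinning to 643748 reads, a code series term, a replicate block and libraries left out. Exon lengths (GENCODE release M21) and promoters (RefSeq) are of a later build, so lengths are approximate. Named are the 10 genes, up to 5 genes of smallest p per pathway list whose higher group averaged at least 5 CPM, and the 2 genes most like each; Rb1, Cdkn2d, Mki67 and Nr2f1 were chosen after their values were seen. The members, lists and tests were chosen with earlier results of these data known. One item of the labels is not reported here.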

Additional observations from a re-analysis of the deposited data

How the results depend on the processing

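The 28 differences of the 10 genes were recomputed in 547 alternatives: 463 kept direction and side of the threshold, 34 lost the call, 17 gained it and 33 changed sign, and 15 differences never changed sign. The cause was not tested.

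Calls moved most. In DTC against mCherryLow, 2 genes were called higher; 1 was with a pseudocount of 5, no filter, a 5 CPM filter, quantile or median-of-ratios scaling, 1 fit of all 9 libraries, DESeq2 or thinning, 0 with TMM or edgeR, and 0 to 2 with a library left out. Of 2 called lower, 1 was with quantile scaling, no trend, 1 fit or thinning, and 1 to 2 with a library left out. In DTC against mCherryHigh, 1 called higher became 0 with median-of-ratios or TMM scaling, no trend, edgeR, DESeq2 or thinning, 3 with array weights or without both mCherryHigh 1 and DTC 3, and 0 to 2 with a library left out. The 0 called lower became 3 with array weights, 2 with edgeR or without both libraries, 1 with DESeq2, and 0 to 2 with a library left out.

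Some differences changed sign. Cdkn2b and Cdkn2c, at -1.16 and -0.96 for mCherryHigh minus mCherryLow, were 0.027 and 0.50 without mCherryHigh 1. For mCherryHigh minus mCherryLow, Ccnd1 was 0.0033 with quantile scaling and -0.60 to 0.57 with a library left out, Ccnd2 -0.020 to 0.44, Cdkn2b -1.95 to 0.027 and Cdkn2c -1.79 to 0.50 with a library left out. Cdk4 was -0.061, -0.080 and -0.13 with median-of-ratios scaling, TMM and array weights, and -0.30 to 0.32 with a library left out. Cdk6 was 0.11 with array weights, 0.13 with thinning and -0.38 to 0.24 with a library left out. For DTC minus mCherryLow, Ccnd1 was 0.21 with array weights and -1.25 to 0.63 with a library left out, and with quantile scaling Ccnd2 was 0.24 and Cdkn1b -0.68. For DTC minus mCherryHigh, Ccnd1 was 0.55 with array weights, 1.23 without both libraries and -1.20 to 0.69 with a library left out, Ccnd2 was 0.013 with quantile scaling and Cdk4 0.19 without both libraries. Cdkn1b was -0.76, -0.063, -0.26, -0.25, -0.041 and -0.10 with quantile, median-of-ratios, TMM, edgeR, DESeq2 and thinning, and -0.19 to 0.38 with a library left out.

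The replicate numbers 1, 5 and 6 are shared by mCherryLow and mCherryHigh, and the deviations of same-numbered libraries correlated across genes at -0.20, -0.023 and 0.27. As these were not all above 0.1, the numbers were not taken as pairs, although numbers 1 and 5 also share a code series. Same-numbered libraries also share a letter in their titles (A, E or F), and such correlations cannot show that the libraries were not paired. With the replicate number as a block, 0 of the 10 genes and 0 of 15437 genes were called, as without it, and not every library correlated best with its own number. No paired analysis was possible for DTC because DTC shares only the number 1 with the sorted groups. Depth limits Cdkn1c and Cdkn2a most, since 3 reads are worth 4.66 CPM in mCherryHigh 1 and 0.253 CPM in mCherryLow 6.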
